A study of Mus musculus with 12 samples.

Results

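Messenger RNA levels in mouse aortic valves labelled Notch1+/-;Gata5+/- were set against the midpoint between wildtype valves and valves labelled Notch1+/-;Gata5-/-. For every gene, the departure is the mean log2 level in the double-heterozygous-labelled libraries minus the average of the wildtype mean and the Gata5-null-labelled mean. A departure of 0 puts the double-heterozygous-labelled mean on the midpoint, a positive departure above it and a negative departure below it. All 12 libraries of the series enter the contrast, 4 in each of the 3 groups, and 19346 of the 20620 genes in the count table passed a filter on low counts and were tested. Poly-A RNA of 3 valves, taken from mice of postnatal day 10, was pooled for each library. The groups were wildtype, mice labelled heterozygous for both Notch1 and Gata5, and mice labelled heterozygous for Notch1 and lacking both copies of Gata5. The Notch1 label therefore changed only between wildtype and the other groups, while the Gata5 label changed at each step. The midpoint therefore lies between genotypes that differ in both genes, and the doses of Gata5 and Notch1 cannot be told apart in it. Which part of either gene the alleles lack, and the strain and litters behind a pool, are not given in the labels. The p-values measure the spread between pools, not between single animals.

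The aortic valve is built of interstitial cells that lay down collagen, proteoglycans and elastin, under a sheet of endothelial cells, and its root joins the smooth muscle of the aortic wall and the heart muscle. Notch1 encodes a receptor through which neighbouring cells signal by contact, and loss of its function is a known cause of bicuspid and calcified aortic valves. Gata5 encodes a zinc finger transcription factor of the endocardium, the inner lining of the heart. For a gene whose level follows the number of working copies evenly on a log scale, a genotype in between lies at the midpoint. A level at either end lies off it.

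The libraries held 13866604 to 25059653 counts. Genes at 0 numbered 6000 in Gata5-null-labelled replicate 3 and 3208 in wildtype replicate 2, and 1017 to 2908 elsewhere. These 2 libraries also had the lowest rank correlations with the rest. The double-heterozygous-labelled libraries had 1017 to 2000 genes at 0. All 20 markers of valve interstitial cells and fibroblasts were detected and tested, with a summed level of 28630 to 37250 CPM per library (counts scaled to a common library total, with TMM factors). All 20 endothelial markers were tested too, at a sum of 1534 to 2111 CPM. The 25 heart muscle markers summed to 28460 to 69380 CPM, so muscle RNA was present in every pool. Xist, the RNA of the inactive X chromosome, was at 0.728 CPM in double-heterozygous-labelled replicate 4 and at 471 to 1849 CPM elsewhere. In such bulk samples, fewer cells of a type and less RNA per cell cannot be told apart.

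Gata5 itself had the smallest unadjusted p of the genes named here, with the double-heterozygous-labelled mean above the midpoint. It was at 2.91, 0.845, 2.38 and 0.951 CPM in wildtype replicates 1 to 4. The double-heterozygous-labelled libraries had 5.05, 5.66, 4.94 and 0.728 CPM, and the Gata5-null-labelled libraries had no count at all. So 3 of the 4 double-heterozygous-labelled libraries lay above every wildtype library and the other lay below every one. A floor of 3 counts over the Gata5-null-labelled group is 0.0403 CPM, which puts the log midpoint at 0.267 CPM. The double-heterozygous-labelled mean of 4.09 CPM ± 2.27 (SD, n = 4) was at least 15.3-fold above that midpoint. Without replicate 4 it was at least 19.5-fold above. Both folds, and the midpoint, use arithmetic group means. The geometric mean, closer to the log2 scale of the departure, was lower at 3.18 CPM, and no fold was taken from it. On a linear scale the midpoint was 0.886 CPM, and the mean was 4.62-fold above it. The lack of counts in the Gata5-null-labelled group, which its label implies, pulls the log midpoint towards 0. Even a level of 0.886 CPM would lie above the log midpoint of 0.267 CPM. The direction, the fold over the log midpoint and the p-values for Gata5 thus follow partly from the design. The exact permutation p was 0.0424 (two-sided, over the 495 ways to choose 4 of 12 libraries, of which the smallest possible p is 0.00202). That test takes all 12 libraries as exchangeable, so a gap between the end groups enters its spread. The edgeR quasi-likelihood test did not call Gata5 (adjusted p = 0.9999, unadjusted p = 9.29e-05). DESeq2 did (adjusted p = 0.00377), and Gata5 was the only gene it called. The counts behind these levels were 15 to 112 per library, so the level in a single pool is known only coarsely. The double-heterozygous-labelled mean was also 2.31-fold that of wildtype, a difference that did not pass (log2 1.21, SE 1.13, unadjusted p = 0.299).

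Notch1 lay slightly above its midpoint, within the error. The wildtype libraries had 116, 159, 98.6 and 139 CPM, the double-heterozygous-labelled 182, 148, 162 and 194 CPM, and the Gata5-null-labelled 213, 207, 153 and 168 CPM. Both groups labelled Notch1+/- thus had higher means than wildtype, and the 3 groups overlapped. The departure was 0.16 log2 units (SE 0.13, 95% interval -0.11 to 0.42, exact permutation p = 0.432, edgeR adjusted p = 0.9999), and 0.09 without double-heterozygous-labelled replicate 4. The double-heterozygous-labelled mean lay 0.79 of the way from the wildtype mean to the Gata5-null-labelled one. The double-heterozygous-labelled mean was not below the wildtype mean for Gata5 or for Notch1, so both Notch1+/- groups are named here by their labels.

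No gene passed the test of a departure. The edgeR quasi-likelihood test called 0 of 19346 genes (0%) at a Benjamini-Hochberg adjusted p under 0.05, and the lowest adjusted p was 0.9999. At an unadjusted p under 0.05 there were 249 genes (1.29%), 173 above the midpoint (0.894%) and 76 below it (0.393%). Evenly spread p-values would put a share of 0.05 of all genes there, so genes with a small unadjusted p are not an excess. The share was 5.37% at a mean log2 CPM of 0 or less, but 0.502% between 6 and 8 and 0.451% above 8. In those last classes, Gata5-null-labelled against wildtype had 6.4% and 11.7% in the same fit. The departure p-values were thus not evenly spread, and whether the test and its intervals are too cautious was not tested. DESeq2 called 1 gene, Gata5, and limma-voom called 0 with or without sample quality weights. The share of positive departures among genes at an unadjusted p under 0.05 depended on the method. It was 69.5% in edgeR, 62.2% with RLE size factors, 44.9% in DESeq2, 92.2% in limma-voom and 38.5% in an edgeR fit of the double-heterozygous-labelled libraries against the other 8 as 1 group. No direction is therefore given for these genes as a set. Of the 173 above the midpoint, 107 had a mean log2 CPM of 0 or less, and the double-heterozygous-labelled libraries also had fewer genes at 0 than the 2 libraries that stood apart, a difference whose part in the count was not tested. Over all genes the median departure was 0.03 log2 units, and 55.2% were positive.

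**Figure D1:**
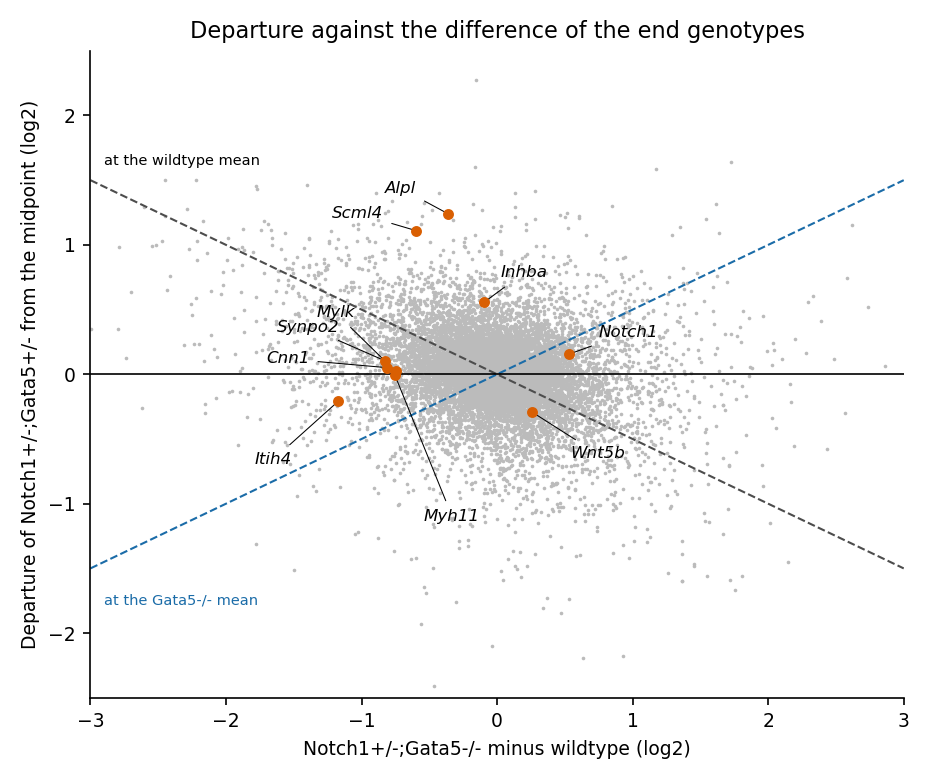
Each grey point is 1 of 14906 genes whose mean log2 CPM was 1 or more, and 14 lie outside the axes. The horizontal axis is the log2 difference of the Gata5-null-labelled and wildtype means, the vertical axis the log2 departure of the double-heterozygous-labelled mean from their midpoint, and the dashed lines mark a mean equal to either end. Orange points are named genes: the 5 genes called between the end genotypes lie near the horizontal line, while Alpl, Scml4 and Inhba lie above both dashed lines.

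The data bounded the departure closely for well expressed genes and hardly at all for weak ones. For the 2392 genes with a mean log2 CPM between 6 and 8, the median half-width of the 95% interval was 0.27 log2 units. In 99.5% of these genes the interval lay within 1 log2 unit of 0, a 2-fold departure, and in 94.3% within 0.58, the fold the authors used as a threshold. Between 4 and 6 the shares were 97.4% and 60.7% of 5216 genes. Between 2 and 4 they were 41.1% and 1.44% of 4781 genes. Between 0 and 2 the interval lay within 1 log2 unit of 0 in 1 of 4207 genes, and at 0 or less in 1 of 2307. For nearly all such weak genes the interval did not exclude a 2-fold departure. The power to detect one was not computed.

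**Figure D2:**
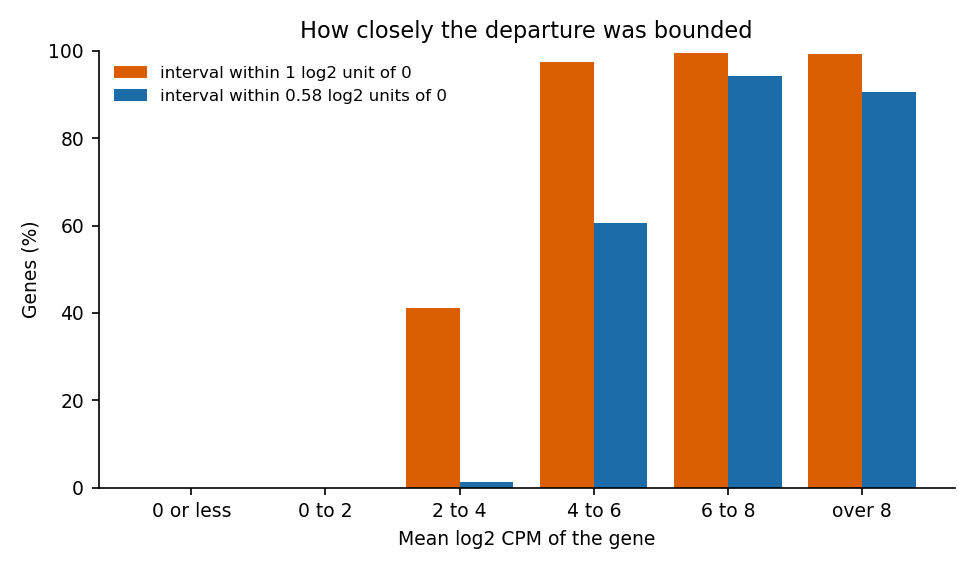
Bars give the percentage of genes in each class of mean log2 CPM whose 95% interval of the departure lies wholly within 1 log2 unit (orange) or 0.58 log2 units (blue) of 0. The orange bars reach 97.4% to 99.5% in the classes above 4, and no bar is visible in the classes up to 2.

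The edgeR test called 5 genes (0.0258%) between Gata5-null-labelled and wildtype, all lower: Mylk, Synpo2, Myh11 and Cnn1, which belong to the contractile apparatus of smooth muscle, and Itih4, of a family of secreted proteins that bind hyaluronan. DESeq2 called 45 genes in this comparison, and edgeR called 2 without wildtype replicate 2, 21 without Gata5-null-labelled replicate 4 and 0 with a score of the Y-linked genes as a covariate. None of the 5 passed a departure test, and for each the 95% interval of the departure held 0 and excluded the means of both end genotypes. The distance between the end means is the value that chose these genes, so it is a description. RefSeq held a promoter window for 4 of them. The 250 bases before the start site are shown 5′ to 3′ because these genes were called together between the end genotypes. Capitals mark matches to a GATA motif on either strand. The letters searched were AGATAA together with its form AGATAG, and TGATAA together with its form TGATAG.
Itih4, chr14:30886226-30886475, plus strand of GRCm38.p6: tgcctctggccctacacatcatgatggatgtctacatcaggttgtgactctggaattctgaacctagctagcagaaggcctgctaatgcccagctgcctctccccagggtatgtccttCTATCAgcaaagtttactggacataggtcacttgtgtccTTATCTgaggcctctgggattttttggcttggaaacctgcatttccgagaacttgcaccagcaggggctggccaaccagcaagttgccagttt
Mylk, chr16:34784700-34784949, plus strand of GRCm38.p6: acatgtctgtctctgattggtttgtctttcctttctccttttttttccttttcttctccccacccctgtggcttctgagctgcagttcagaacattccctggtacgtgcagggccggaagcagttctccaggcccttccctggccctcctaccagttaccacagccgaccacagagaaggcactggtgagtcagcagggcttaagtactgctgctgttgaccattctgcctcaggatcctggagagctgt
Synpo2, chr3:123236150-123236399, minus strand of GRCm38.p6: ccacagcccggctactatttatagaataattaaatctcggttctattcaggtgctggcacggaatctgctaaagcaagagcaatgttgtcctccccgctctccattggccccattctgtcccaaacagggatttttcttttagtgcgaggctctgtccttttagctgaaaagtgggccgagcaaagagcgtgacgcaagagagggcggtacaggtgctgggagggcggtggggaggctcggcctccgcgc
Cnn1, chr9:22099003-22099252, plus strand of GRCm38.p6: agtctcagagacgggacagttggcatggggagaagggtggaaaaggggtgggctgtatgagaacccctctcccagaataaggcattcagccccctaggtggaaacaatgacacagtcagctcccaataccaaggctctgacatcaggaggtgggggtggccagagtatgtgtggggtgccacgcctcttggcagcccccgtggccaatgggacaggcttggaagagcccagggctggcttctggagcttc

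The Itih4 window held 2 GATA matches, CTATCA from base -132 and TTATCT from base -93 relative to the start site, and the other 3 windows held none. Of 32851 RefSeq promoter windows of this length, 26.5% held at least 1 such match. None of the 4 held a CArG box, the serum response factor motif, which 1.47% of all windows held, or the RBPJ motif GTGGGAA on either strand, which 5.42% held. These matches describe the letters in the windows only.

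Mylk, myosin light chain kinase, which starts smooth muscle contraction, lay almost on its midpoint. Wildtype replicates 1 to 4 had 426, 489, 383 and 471 CPM. The double-heterozygous-labelled libraries had 335, 356, 340 and 355 CPM and the Gata5-null-labelled 278, 271, 221 and 283 CPM, so the 3 groups did not overlap. The geometric mean in the double-heterozygous-labelled libraries was 346 CPM against a midpoint of 340 CPM. The departure was 0.02 log2 units (95% interval -0.19 to 0.23, exact permutation p = 0.909), a position 0.47 of the way from wildtype to Gata5-null-labelled. Because the gap between the end groups widens the permutation spread, the large permutation p does not place Mylk on its midpoint. Its difference from either end did not pass on its own (log2 -0.35, SE 0.12, against wildtype and 0.40, SE 0.12, against Gata5-null-labelled). Over all genes, the double-heterozygous-labelled group had 0 genes called against either end (0%), with 1.25% at an unadjusted p under 0.05 against wildtype and 3.18% against Gata5-null-labelled.

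Synpo2, synaptopodin 2, an actin-bundling protein of muscle, showed the same order without overlap. It was at 364, 410, 345 and 400 CPM in wildtype, 286, 314, 292 and 334 CPM in the double-heterozygous-labelled and 204, 208, 179 and 265 CPM in the libraries labelled Gata5-null. Its departure was 0.10 log2 units (95% interval -0.12 to 0.33), at 0.37 of the way.

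Myh11, the smooth muscle myosin heavy chain, had a double-heterozygous-labelled geometric mean of 1806 CPM against a midpoint of 1799 CPM. Its libraries were at 2226, 2619, 1901 and 2683 CPM in wildtype, 1648, 1857, 1840 and 1891 CPM in the double-heterozygous-labelled and 1169, 1426, 1328 and 1666 CPM in the Gata5-null-labelled group. Only Gata5-null-labelled replicate 4 reached above a double-heterozygous-labelled library, and wildtype lay above both other groups. The departure was -0.005 log2 units (95% interval -0.23 to 0.22), at 0.51 of the way.

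Cnn1, calponin 1, an actin-binding brake on myosin, was at 239, 332, 229 and 304 CPM in wildtype. It was at 202, 209, 234 and 219 CPM in the double-heterozygous-labelled and 119, 153, 173 and 184 CPM in the libraries labelled Gata5-null. The first 2 groups overlapped and the last lay below both. The departure was 0.05 log2 units (95% interval -0.21 to 0.31), at 0.44 of the way. For these 4 genes the departure lay between -0.05 and 0.17 log2 units in the alternative settings, and for Mylk, Myh11 and Cnn1 its sign changed in some of them.

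Itih4 was the called gene farthest from its midpoint, on the Gata5-null-labelled side. It was at 64.2, 74.1, 78.1 and 93.2 CPM in wildtype, 40.5, 40.7, 51.2 and 46.3 CPM in the double-heterozygous-labelled and 26.5, 33.1, 37.0 and 41.0 CPM in the libraries labelled Gata5-null. The wildtype libraries lay above all others, and Gata5-null-labelled replicate 4 lay above 2 of the double-heterozygous-labelled libraries. The departure was -0.21 log2 units (SE 0.15, 95% interval -0.52 to 0.10, exact permutation p = 0.562), at 0.68 of the way. The edgeR unadjusted p of this departure was 0.181, and here too the gap between the end groups enters the permutation p. The double-heterozygous-labelled mean was lower than wildtype by a log2 difference of -0.79 (SE 0.17, unadjusted p = 1.21e-04) and higher than Gata5-null-labelled by 0.38 (SE 0.17, unadjusted p = 0.0395), neither of which passed over all genes.

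**Figure D3:**
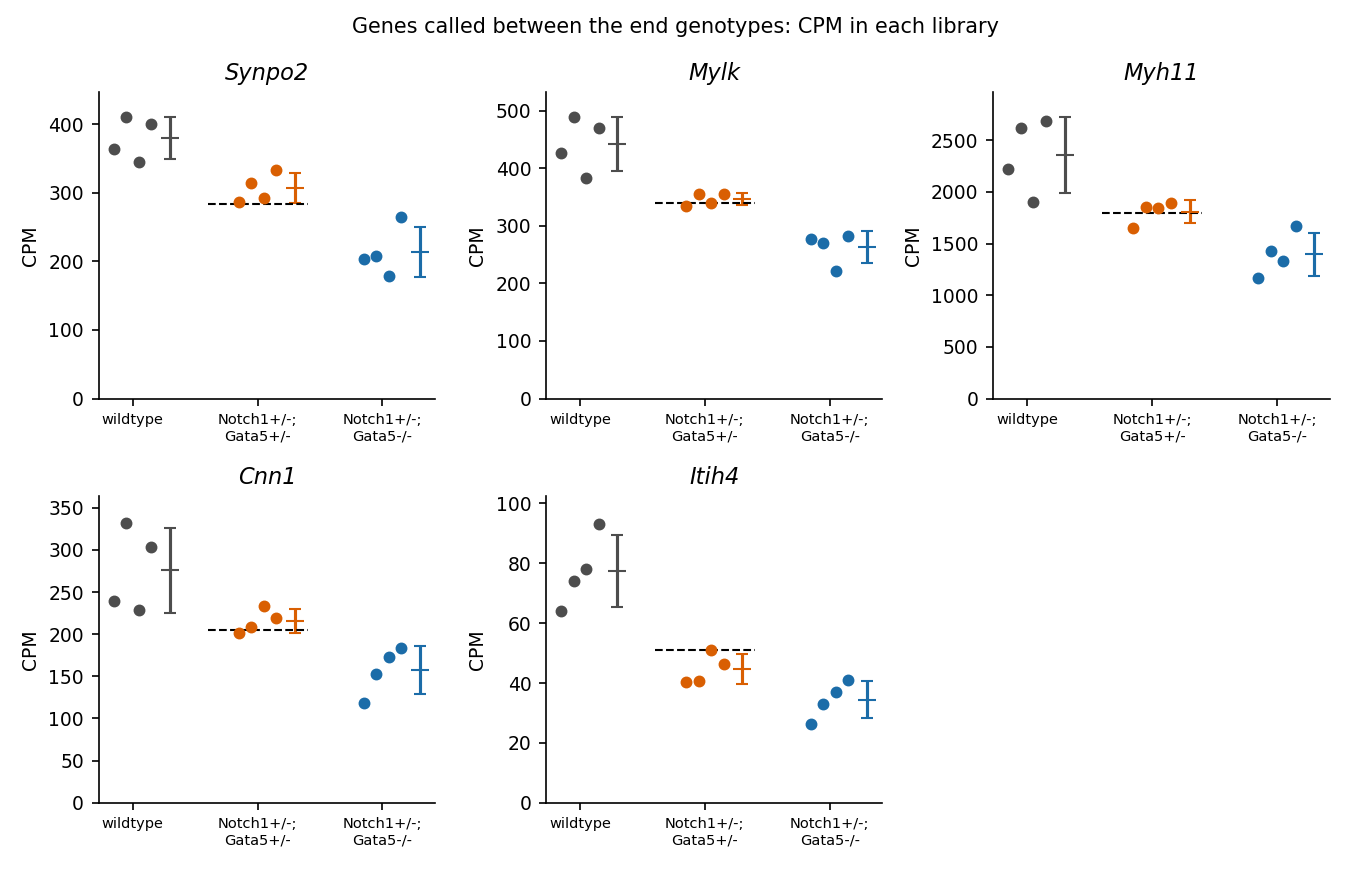
Points are CPM of the 4 libraries of each group for the 5 genes called between the end genotypes, bars the mean ± SD, and dashed lines the midpoint of the mean log2 levels of the end groups. The double-heterozygous-labelled means lie close to the dashed line for Mylk and Myh11, and below it for Itih4.

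Genes whose 3 groups formed a staircase were counted in each order. In 4 genes (0.0207%) every wildtype library lay above every double-heterozygous-labelled one and these above every Gata5-null-labelled one: Mylk, Synpo2, Zfp93 and Slc9a2, the last 2 a zinc finger gene and a sodium-proton exchanger. In 2 genes (0.0103%), Gprin3 and Sdad1, the order ran the other way. Zfp93 was at 10.0 to 18.4 CPM in wildtype, 6.92 to 8.30 CPM in the double-heterozygous-labelled and 5.50 to 6.65 CPM in the libraries labelled Gata5-null. Slc9a2 was at 0.939 to 2.03, 0.404 to 0.777 and 0 CPM in the same order of groups. Gprin3 was at 2.81 to 4.22, 4.32 to 7.65 and 8.22 to 16.0 CPM. Sdad1 was at 29.3 to 40.5, 41.5 to 45.0 and 46.1 to 55.4 CPM. None of the 6 departures passed. The 4 other orders without overlap, which have the double-heterozygous-labelled group at either end, each held 0 genes. The share that chance would give for an order was not computed, so these counts are a description.

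A wider set held 754 genes that reached a mean log2 CPM of 1 and an unadjusted p under 0.05 between the end genotypes (5.4% of all genes tested reached that p). In 684 of them the double-heterozygous-labelled mean lay between the end means. Choosing genes with a wide gap between the ends by itself favours a mean in between, so the share of 90.7%, against 42.2% of all 14906 genes at that level, is a description. Of the 684, 436 lay nearer to wildtype and 248 nearer to Gata5-null-labelled, with a median position of 0.39 over all 754. Of the 754, 12 (1.59%) had a departure with an unadjusted p under 0.05, against 0.718% of the 14906. Without the cut on level it was 115 of 1044 (11%), against 1.29% of all genes tested. Both contrasts share the spread estimate of each gene, so choosing by a small p in 1 favours a small p in the other. These shares are therefore a description. For the 434 genes lower in Gata5-null-labelled the median position was 0.36, and for the 320 higher ones 0.45. The lean towards wildtype is a description too, since the end means that chose these genes also set the position. Its cause was not tested. Of the 33 genes that the authors' deposited table marks as changed, 31 had the double-heterozygous-labelled mean in between, at a median position of 0.41. Their median log2 difference of Gata5-null-labelled from wildtype was -0.75, a gap that again favours a mean in between. The count is thus a description, beside 41.9% of all genes tested, and no separate support.

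In 35 genes (0.181%) all 4 double-heterozygous-labelled libraries lay above the other 8, and in 1 gene (0.00517%) all lay below. Were the 12 libraries exchangeable, 1 of the 495 ways to choose 4, a share of 0.00202, would give each outcome. The count above was near that share and the count below under it, so neither is read as a result about this group. The same counts were 37 above and 26 below for wildtype, and 35 above and 95 below for the Gata5-null-labelled group. Of the 35 genes, 16 had a mean log2 CPM under 1. With other scalings the counts for the double-heterozygous-labelled group were 30 to 36 above and 2 to 5 below. Without wildtype replicate 2 and Gata5-null-labelled replicate 3 they were 70 and 31. That setting leaves 4 libraries in the double-heterozygous-labelled group and 3 in each of the others, so its counts cannot be compared between groups.

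Inhba, Fgf2 and Wnt5b encode secreted signals, and none of the 3 passed. Inhba encodes the activin A subunit, a ligand of the TGF-beta family. It was singled out, with Orc4, Vsir, Itpripl1 and Cep350, for its small unadjusted p after its values were seen. The double-heterozygous-labelled libraries were at 175, 116, 93.5 and 124 CPM, against 80.7, 79.6, 93.1 and 105 CPM in wildtype and 81.4, 81.5, 77.4 and 94.3 CPM in the Gata5-null-labelled. Replicate 1 stood highest, and replicate 3 lay among the other groups. The departure was 0.55 log2 units (SE 0.14, 95% interval 0.27 to 0.84, exact permutation p = 0.00606, edgeR unadjusted p = 5.54e-04, adjusted p = 0.9999). Without replicate 1 it was 0.35. Since Inhba was chosen by its p on these libraries, its permutation p is a description. Fgf2, a fibroblast growth factor, was at 66.8, 73.7, 69.3 and 67.3 CPM, just above the highest of the other libraries at 66.6 CPM (departure 0.26, SE 0.14). Wnt5b, a Wnt ligand, was the only gene with all 4 libraries below the rest. It was at 21.5, 21.7, 20.3 and 20.2 CPM, against 21.9 to 25.6 CPM in wildtype and 23.1 to 39.8 CPM in the Gata5-null-labelled group (departure -0.29, SE 0.20, and -0.19 without Gata5-null-labelled replicate 3).

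Alpl, the tissue-nonspecific alkaline phosphatase that permits mineral to form, was also above the other 8 libraries. It was at 5.518, 5.256, 5.997 and 10.78 CPM in the double-heterozygous-labelled pools. Wildtype had 1.35, 2.49, 4.71 and 4.66 CPM and the Gata5-null-labelled pools had 2.39, 2.07, 0.757 and 4.997 CPM. The highest libraries of those groups thus lay just below the lowest of the double-heterozygous-labelled. The departure was 1.24 log2 units (SE 0.57, 95% interval 0.07 to 2.41, edgeR adjusted p = 0.9999), and 0.94 without replicate 4. Of the 11 mineralization genes tested, Alpl included, 6 were positive, with a median of 0.08. Runx2, the master factor of bone, and Spp1, osteopontin, were at 0.66 (SE 0.70) and -0.46 (SE 0.55). The sign of that median changed without double-heterozygous-labelled replicate 1.

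The remaining genes with all double-heterozygous-labelled libraries above the others were named by p where their mean log2 CPM was 1 or more. They included Scml4, a Polycomb-group-like gene, at 13.01, 13.29, 13.15 and 14.27 CPM against 0.757 to 9.82 CPM elsewhere (departure 1.11, SE 0.40). Apaf1, which builds the apoptosome in cell death, was at 55.5, 48.8, 47.7 and 56.1 CPM, against 31.8 to 46.7 CPM elsewhere (departure 0.37, SE 0.15). Etfbkmt, a mitochondrial lysine methyltransferase, had a departure of 0.80 (SE 0.30). Departures of Rnf138, Fam171b, Btbd10, Zdhhc3 and Tmcc3 were 0.54, 0.58, 0.37, 0.31 and 0.31 log2 units. All these genes, with Alpl, Fgf2 and Wnt5b, were chosen for their lack of overlap, so no permutation p is given for them.

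Other genes with a small unadjusted p overlapped between groups. Above the midpoint were Orc4, of the complex that marks replication origins, at 0.49 (SE 0.16), and Vsir, an immune checkpoint receptor, at 0.55 (SE 0.19). Itpripl1 and the centrosome gene Cep350 were at 0.72 (SE 0.25) and 0.28 (SE 0.10). Below it were Fras1, a basement membrane protein, at -0.49 (SE 0.18), and Mrps30, of the mitochondrial ribosome, at -0.87 (SE 0.32). Prdm16os was at -0.88 (SE 0.33), an antisense gene whose reads cannot be told from those of its partner since strand use is unknown. Actl6a, a chromatin remodelling subunit, and Slc20a1, a phosphate transporter, were at -0.56 (SE 0.21) and -0.47 (SE 0.19). These too were singled out after their values were seen, and all had an adjusted p of 0.9999.

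**Figure D4:**
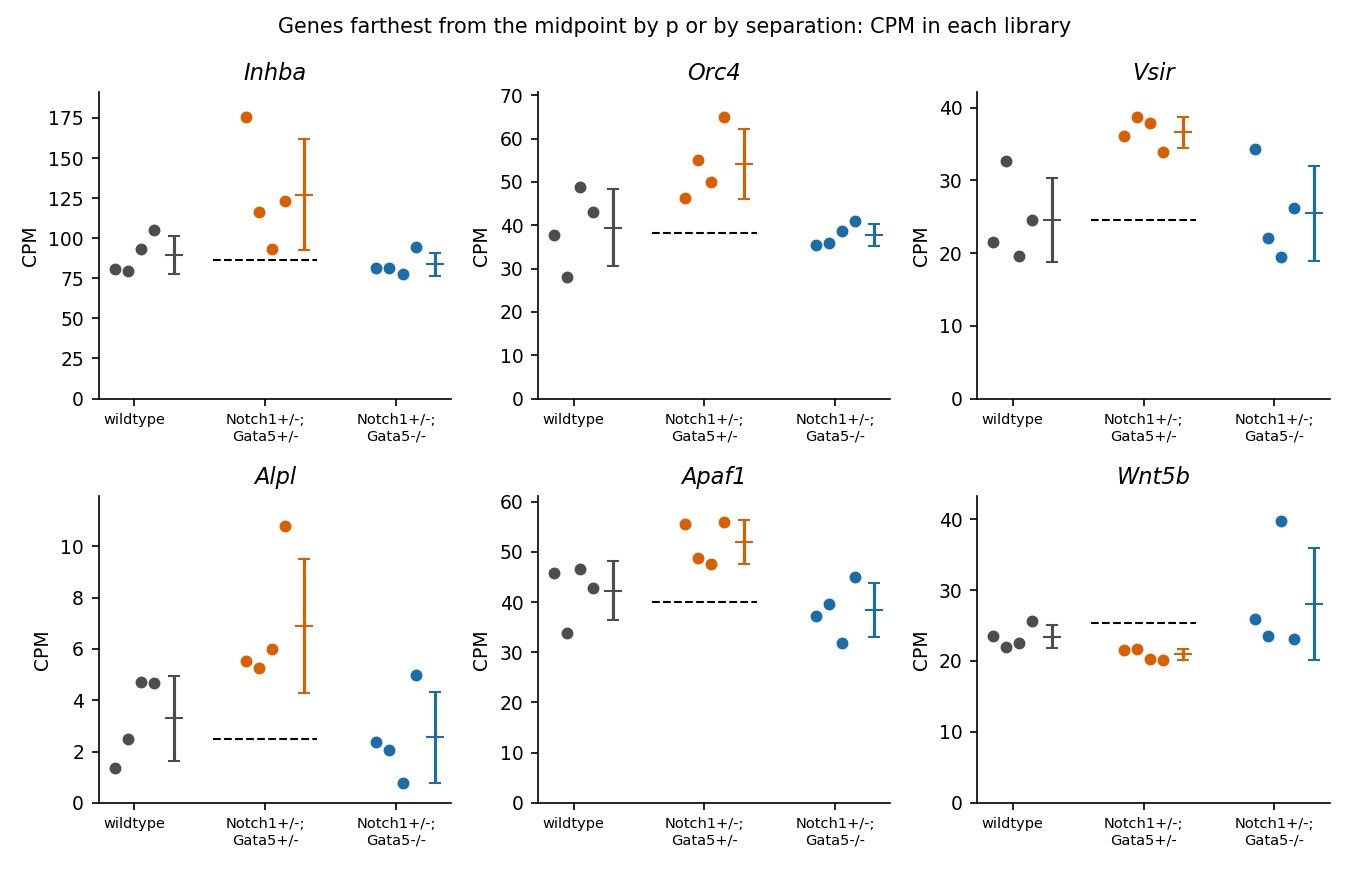
Points are CPM of the 4 libraries of each group for 6 genes chosen for a small p or a lack of overlap, bars the mean ± SD, and dashed lines the midpoint of the mean log2 levels of the end groups. In the 5 genes other than Wnt5b the double-heterozygous-labelled mean lies above the dashed line, and in Wnt5b below it.

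Among the 43 gene lists, with 692 distinct genes tested, no member passed the departure test in edgeR. The median departure was positive in 24 lists and negative in 19, from -0.67 to 0.39 log2 units, against 0.03 over all genes. Both extremes were lists of 5 tested members, the respiratory and thyroid markers and the Y-linked genes with Xist. The lists were chosen with earlier results of these data known, and are described by their counts and medians. Over all genes 1.29% reached an unadjusted p under 0.05 and 55.2% were positive. In any of these lists 1 such member already exceeds that 1.29%. Some genes, Dcn, Lum and Col1a1 among them, sit in more than 1 list. Timp3, Pi16 and Nfkbia were named for their small p, so their permutation p on the same libraries is a description.

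The smooth muscle and pericyte list held 22 tested members, none at an unadjusted p under 0.05. In 17 of them the double-heterozygous-labelled mean lay between the end means. The median departure was 0.04, between -0.01 and 0.09 in the alternative settings and of changed sign without Gata5-null-labelled replicate 3 or double-heterozygous-labelled replicate 4. Tagln, transgelin, and Acta2, smooth muscle actin, had departures of 0.06 (SE 0.11) and -0.01 (SE 0.12), at 0.41 and 0.52 of the way. The smallest p was that of Kcnj8, a potassium channel subunit of pericytes, at 0.34 (SE 0.20, unadjusted p = 0.103). The summed level of the list was 10600 to 13020 CPM in wildtype, 8578 to 11670 CPM in the double-heterozygous-labelled and 7675 to 10980 CPM in the libraries labelled Gata5-null, which overlapped. Its highest member, Tpm1, had a log2 difference of -0.05 between Gata5-null-labelled and wildtype, against -0.75 for Myh11. The sum thus does not follow the called contractile genes alone.

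Of the Notch list 24 members were tested, 0 at an unadjusted p under 0.05. Among receptors, Notch2, Notch3 and Notch4 had departures of -0.10, -0.10 and 0.06. Among ligands, Jag1 was at -0.18 (SE 0.14), with 92.7, 77.5, 97.9 and 79.5 CPM in the double-heterozygous-labelled pools against 74.7 to 120.0 CPM elsewhere. Dll4 and Dll1 were at -0.15 and -0.03. The fringe genes, which add sugars to Notch receptors, went different ways, with Lfng at 0.41 (SE 0.37), Mfng at -0.24 (SE 0.55) and Rfng at -0.59 (SE 0.36, and -0.37 without wildtype replicate 3). The targets Hey1, Hey2, Heyl, Hes1 and Nrarp were at -0.19, -0.01, -0.11, -0.15 and 0.08. In all, 9 members were positive and 15 negative, with a median of -0.03, between -0.06 and -0.02 in the alternative settings.

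Of the 25 BMP and TGF-beta genes 12 were positive, of the 24 Wnt genes 14, and 0 of either reached an unadjusted p under 0.05. The ligands Tgfb2, Tgfb3 and Bmp4 had departures of 0.01 (SE 0.15), 0.04 (SE 0.11) and 0.03 (SE 0.20), and the receptors Bmpr2 and Tgfbr2 of 0.07 (SE 0.10) and -0.01 (SE 0.13). Among secreted Wnt inhibitors, Sfrp1 was at 0.23 (SE 0.13) and Wif1 at 0.26 (SE 0.19). Nkd1, an inhibitor inside the cell, was at -0.37 (SE 0.21). The BMP and TGF-beta median was -0.004, between -0.03 and 0.04 in the alternative settings, with 6 changes of sign in 15. The Wnt median was 0.07, and -0.05 without double-heterozygous-labelled replicate 1.

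Of the 16 GATA factors and cardiac partners, Gata5 was the 1 member (6.25%) at an unadjusted p under 0.05, against 1.29% of all genes. The genotype of the Gata5-null-labelled group sets its midpoint. Gata4 and Gata6, which share target sites with Gata5 in the heart, had departures of 0.03 (SE 0.11) and -0.20 (SE 0.13). Gata6 was at 77.9, 89.0, 95.9 and 107 CPM in the double-heterozygous-labelled pools, 82.0 to 106 CPM in wildtype and 92.2 to 133 CPM in the Gata5-null-labelled, and the groups overlapped. Hand2, Srf and Tbx2, transcription factors of heart and muscle, were at 0.29 (SE 0.16), 0.36 (SE 0.20) and 0.44 (SE 0.28). Without double-heterozygous-labelled replicate 4, Hand2 and Tbx2 were both at 0.17. Tbx20, a T-box factor of the heart, was at 0.03 (SE 0.10), and Nfatc1, a factor of valve endocardium, at -0.08 (SE 0.19).

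Of 18 collagens, 15 were positive, with a median of 0.08, between 0.04 (without double-heterozygous-labelled replicate 3) and 0.11, and none reached an unadjusted p under 0.05. The main valve collagens Col1a1, Col1a2 and Col3a1 were at -0.001 (SE 0.11), 0.001 (SE 0.10) and 0.08 (SE 0.09). The smallest p was that of Col8a1, a short-chain collagen, at 0.25 (SE 0.13). Of 20 proteoglycan and hyaluronan genes, 17 were positive, with a median of 0.13, which was 0.02 without double-heterozygous-labelled replicate 1. Versican (Vcan), lumican (Lum) and decorin (Dcn) were at 0.08, 0.12 and 0.13, of which Lum and Dcn were at 0.05 and 0.04 without double-heterozygous-labelled replicate 1, and aggrecan (Acan) at -0.25 (SE 0.17). Eln, elastin, was at -0.07 (SE 0.13), and 7 of the 18 elastic fibre genes were positive, with a median of -0.04 whose sign changed without wildtype replicate 2. Of 18 matrix proteases and inhibitors, 14 were positive and 1 (5.56%) reached an unadjusted p under 0.05, against 1.29% of all genes. It was Timp3, an inhibitor held in the matrix, at 825, 691, 658 and 668 CPM in the double-heterozygous-labelled pools. Timp3 was at 524, 627, 607 and 609 CPM in wildtype and 755, 599, 479 and 484 CPM in the Gata5-null-labelled, where replicate 1 lay within the double-heterozygous-labelled range. Its departure was 0.28 (SE 0.12, exact permutation p = 0.0444, adjusted p = 0.9999), and 0.19 without double-heterozygous-labelled replicate 1, the highest library. As Timp3 was named for its small p, the permutation p is no separate support.

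Of the 20 interstitial and fibroblast markers 16 were positive, with a median of 0.08, which was 0.05 without double-heterozygous-labelled replicate 1. Postn, Vim and Pdgfra, a matrix protein, a filament protein and a growth factor receptor of these cells, were at 0.08, 0.08 and 0.09. Pi16, a marker of adventitial fibroblasts, was the 1 member (5%) at an unadjusted p under 0.05, against 1.29% of all genes. It was at 70.5, 66.1, 80.4 and 92.1 CPM in the double-heterozygous-labelled pools, 73.2, 61.2, 68.4 and 53.8 CPM in wildtype and 60.9, 55.4, 21.1 and 46.6 CPM in the Gata5-null-labelled, where replicate 3 was lowest. Its departure was 0.51 (SE 0.20, exact permutation p = 0.0707), and 0.39 without Gata5-null-labelled replicate 3. Of the 20 endothelial markers 11 were positive, with a median of 0.06, which was 0.0076 without Gata5-null-labelled replicate 1. Pecam1 and Cdh5, of endothelial junctions, were at 0.16 and 0.08. Of 17 chondrogenic genes 14 were positive, with a median of 0.16, which was -0.05 without double-heterozygous-labelled replicate 1. Sox9, the cartilage factor also active in valve mesenchyme, was at 0.48 (SE 0.25).

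Among markers of cells outside the valve leaflet, the members with the largest fitted departures were at low counts. Of the 12 atrial genes tested, Bmp10 had a fitted departure of 3.76, from 0, 18, 67 and 131 counts in the double-heterozygous-labelled pools, 10, 0, 35 and 0 in wildtype and 0, 1, 0 and 4 in the Gata5-null-labelled. The list was otherwise mostly negative, at 9 of 12 with a median of -0.18 (positive without double-heterozygous-labelled replicate 1 or 3). Its sum was 2387 to 3077 CPM against 2661 to 3194 in wildtype and 2146 to 2434 in Gata5-null-labelled. That sum leans on its highest members, Pam and Dkk3, at a mean log2 CPM of 10.7 and 9.10. Their departures were 0.03 and -0.03, so the sum says little about the other members. Of the 20 lymphocyte markers 11 were tested. Ighm, the heavy chain of B cells, was at 47, 80, 30 and 12 counts in the double-heterozygous-labelled pools against 0 to 62 elsewhere. Cd3d, of the T cell receptor complex, was at 0 in all 4 double-heterozygous-labelled pools and in 4 of the other 8. The lymphocyte sums of 7.77 to 14.1 CPM lay within those of wildtype, 7.76 to 22.2 CPM, and 3.55 to 21.95 CPM in the Gata5-null-labelled group. Kcna1, a potassium channel of axons in the Schwann and neuronal list, was at 1.61, 3.69, 1.71 and 1.70 CPM, against 4.73 to 12.2 CPM in wildtype and 2.46 to 4.75 CPM in Gata5-null-labelled (departure -1.22, SE 0.57). Its list had 11 of 17 positive. The part of such cells in any departure was not tested.

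Of 28 cytosolic ribosomal protein genes 22 were negative, with a median of -0.07, between -0.13 and -0.01 without double-heterozygous-labelled replicates 4 and 3 respectively. Rps27 was the 1 member (3.57%) at an unadjusted p under 0.05, against 1.29% of all genes. It was at -0.49 (SE 0.23), with 14.9, 20.3, 15.2 and 16.9 CPM in the double-heterozygous-labelled pools against 13.3 to 31.6 CPM elsewhere. Small ribosomal protein genes have near-identical copies in the genome, so their counts are uncertain. Of 28 nuclear genes of oxidative phosphorylation 19 were negative, with a median of -0.07, a sign that changed without wildtype replicate 3 or double-heterozygous-labelled replicate 1 or 3. All 7 mitochondrially encoded genes had the double-heterozygous-labelled mean between the end means, with a median departure of -0.02, between -0.18 and 0.13 in the alternative settings, with 5 changes of sign in 15. Of 15 glucocorticoid-responsive genes 12 were positive, with a median of 0.17, which was 0.04 without double-heterozygous-labelled replicate 4. Nfkbia, an inhibitor of NF-kappa-B, was at 21.0, 23.2, 16.0 and 23.2 CPM against 10.8 to 19.1 CPM elsewhere (departure 0.53, SE 0.24, exact permutation p = 0.0182, adjusted p = 0.9999). Of 25 cell cycle genes 12 were positive, with a median of -0.001, between -0.08 and 0.09 in the alternative settings, with 5 changes of sign in 15.

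**Figure D5:**
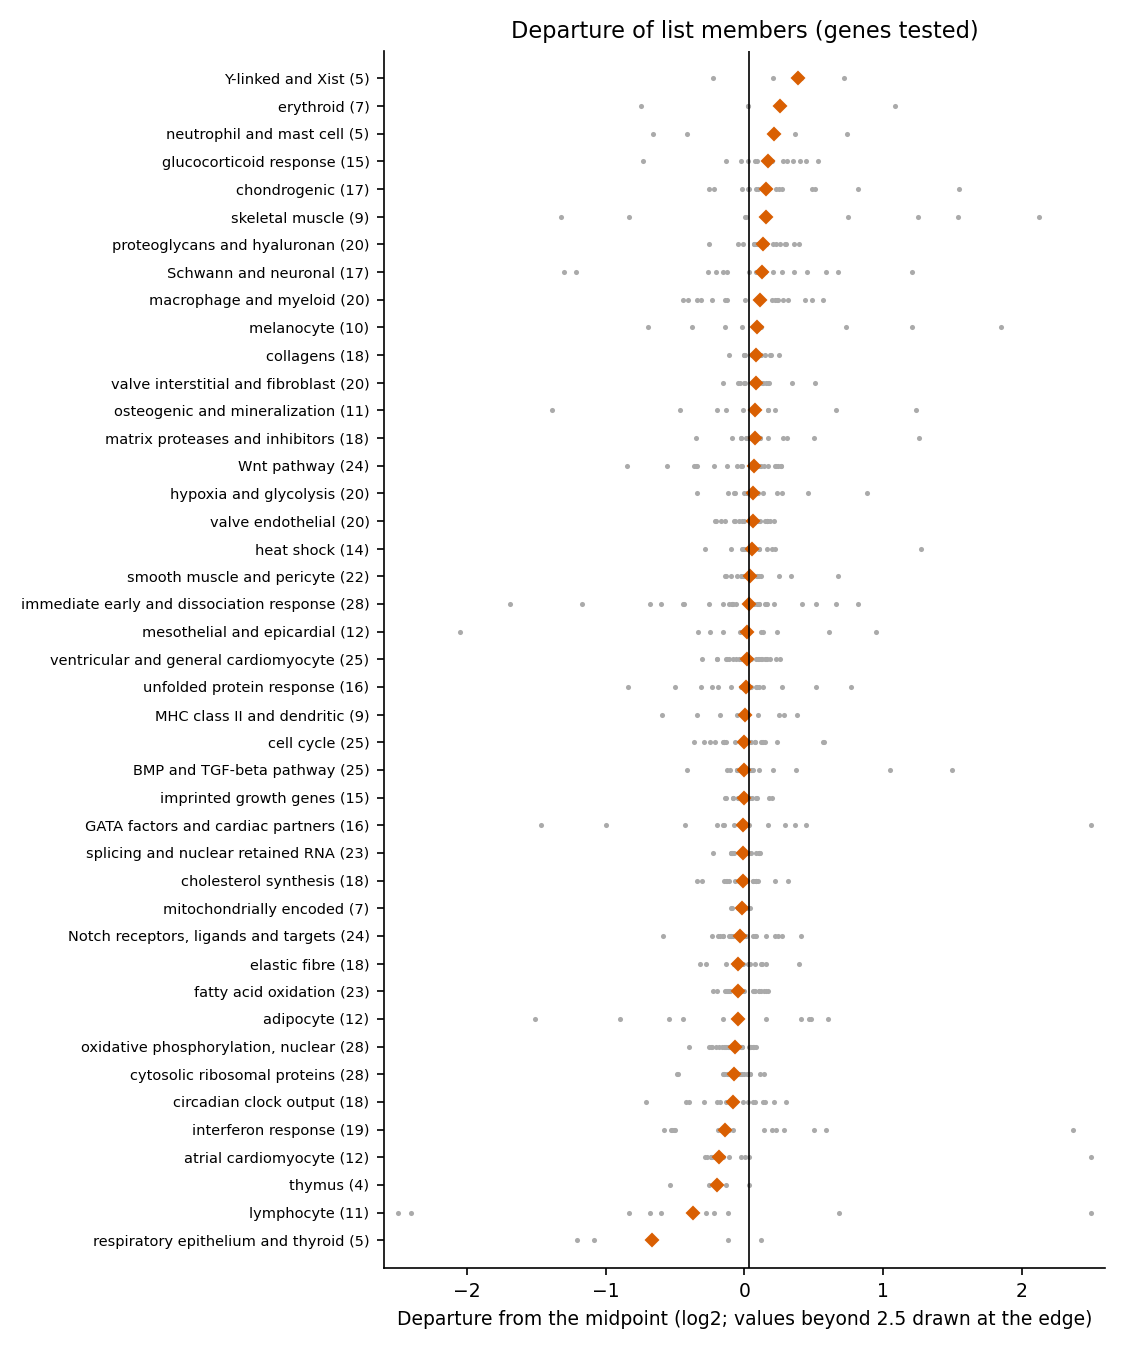
Each row is a gene list with its number of tested genes, grey points the log2 departures of its members (values beyond 2.5 drawn at the edge) and orange diamonds their medians. The black line is the median over all genes, 0.03. The outermost diamonds, at -0.67 and 0.39, belong to lists of 5 tested genes.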

How the data were processed

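RNA was sequenced from 12 libraries, each a pool of 3 aortic valves. Per the submitters' processing notes, reads were trimmed with Trim Galore, aligned with STAR 2.7.10b to GRCm39 and analysed with DESeq2 1.34.0. For the counter, the annotation release and the strand setting, no source used here gives a name. The authors deposited raw counts per gene, which gave every value here. The authors' deposited table of 1 unnamed comparison holds mean normalized signal, log2 fold changes, their errors and statistics as scores, and p-values, and it was used only for symbols and for which genes it marks as changed.

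Totals of 13866604 to 25059653 counts put the floor of 3 counts at 0.120 to 0.216 CPM. Genes were filtered with filterByExpr, scaled by TMM and fitted with edgeR 4.0.16 (robust quasi-likelihood, R 4.3.3), with a term per group over all 12 libraries and Benjamini-Hochberg adjustment over all genes tested. Intervals are 95% intervals from the fit. DESeq2 1.42.0 and limma 3.58.1 were alternatives, with other scalings and filters, a replicate block, covariates, a linear midpoint and left-out libraries. Counts of non-overlapping genes under other settings were added after seeing the data. The code was tested on simulated data.

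Members and lists were chosen with earlier results of these data known. Named genes were Notch1 and Gata5, up to 10 genes per direction without overlap and with the smallest p, members with the smallest p from lists rich in such members, and genes called between the end genotypes. Results for some genes are not reported here. Others are said to be chosen after their values were seen. Promoter windows came from RefSeq (GRCm38.p6), matched by symbol for 6 of 7 genes. No coordinates were moved between builds.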

Additional observations from a re-analysis of the deposited data

Results flagged for a closer look

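In 13 of 216 sets of 4 libraries (6.02%), 72 named genes in 3 groups, the gap between 1 library and the nearest of the other 3, as a share of the whole range on the log2 scale, was above Dixon's 95% critical value. Chance gives about 1 such set in 20. Values are CPM.

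Gata5 was at 0.728 in double-heterozygous-labelled replicate 4, against 4.94 to 5.66 in the other 3. In the same group, Fam171b was at 20.06 in replicate 2 (others 16.1 to 16.7) and Kcna1 at 3.69 in replicate 2 (others 1.61 to 1.71). Mmp19 was at 6.71 in replicate 1 (others 8.64 to 9.08), Actl6a at 12.6 in replicate 3 (others 18.9 to 20.6) and Slc20a1 at 22.04 in replicate 4 (others 26.6 to 27.5).

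In wildtype, replicate 2 stood apart in Fgf2 at 66.6 (others 52.6 to 53.5), in Ank at 34.7 (others 49.7 to 51.5) and in Mrps30 at 16.2 (others 9.11 to 9.31). Gata6 was at 82.0 in replicate 3 (others 102.7 to 106.1).

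In the Gata5-null-labelled group, Hand2 was at 49.4 in replicate 3 (others 36.7 to 38.2) and Cd34 at 296.1 in replicate 4 (others 251.8 to 256.2). Gp1bb, a platelet glycoprotein, was at 13.4 in replicate 3 and 0 in the others.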

How the results depend on the processing

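The count of genes called for a departure was 0 in edgeR, 1 in DESeq2 (Gata5), 1 without wildtype replicate 2 and Gata5-null-labelled replicate 3 together (Gp1bb), and 0 to 1 with each library left out, 1 without Gata5-null-labelled replicate 3 (Gp1bb, named after its values were seen). Between Gata5-null-labelled and wildtype it was 5, and 45 in DESeq2, 0 with the Y-linked score, 2 without both libraries, 8 at an adjusted p under 0.1 and a log2 difference over 0.58, and 2 to 21 with each library left out. The replicate numbers did not pair the libraries (correlations of -0.04 to 0.17), and with the replicate block the counts were 0 and 7. Genes with all double-heterozygous-labelled libraries above the others numbered 46 to 96 with each library left out and 70 without both. Those below numbered 3 with RLE, 5 with upper quartile scaling, 2 with totals alone, 5 to 27 with each library left out and 31 without both. Departures within their errors changed sign as follows, and the cause was not tested. The departure of Sp7 went from -1.39 to 0.0999 in limma-voom. The departure of Mylk was -0.0263 against the other 8 libraries as 1 group, -0.001502 with the Y-linked score, -0.0262 on the linear scale, and -0.0158 to 0.0418 with each library left out. The departure of Myh11 was 0.003449 and 0.0173 in limma-voom without and with quality weights, 0.0057 with the replicate block, 0.0058 without both libraries, and -0.0504 to 0.0450 with each left out. The departure of Gp1bb, at -0.05, was 2.28 and 2.92 in limma-voom without and with quality weights, 1.55 with the replicate block, 0.18 with the heart muscle score, 0.99 with the Y-linked score, 4.67 without both libraries, and -0.36 to 4.49 with each left out, the highest without Gata5-null-labelled replicate 3. The departure of Cnn1 was -0.0052 against the other 8, -0.0051 on the linear scale, and -0.0129 to 0.0956 with each left out. Intervals were widest for weak genes, and whether depth or the number of pools sets this was not tested.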
